A study of Mus musculus with 4 samples.

Results

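The complement genes described here are 7 of the 22463 gene symbols measured by RNA-Seq in brown preadipocytes with and without MLL4: C3, C4b, Cfb, C1ra, Serping1, Cd55 and Cd59a. They were chosen by symbol and not by a rule on their values, though with earlier results of these data known. Each is represented by its RefSeq transcript with most reads over the 4 libraries. All 7 were found in the files, and 5 of them (C3, C4b, Cfb, C1ra and Serping1) had an RPKM, the read count scaled by exon length and mapped reads, above 1 in at least 1 library, the level at which a gene was taken as expressed. Cd59a stayed below that level and Cd55 had no read in any library.

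The cells were brown preadipocytes, precursors of brown fat cells, taken from interscapular brown fat of C57BL/6J embryos at E18.5 and made immortal with SV40T. All of them carried disrupted Mll3 alleles and floxed Mll4 alleles. Infection with Ad-GFP, an adenovirus that expresses green fluorescent protein, gave the Mll3-/- cells, and infection with Ad-Cre, which expresses Cre recombinase, gave the Mll3-/-Mll4-/- cells. Day 0 was the confluent culture before induction, and day 2 followed 2 days with insulin, T3, indomethacin, dexamethasone and IBMX. The labels call the Ad-GFP cells WT, but no library came from cells with intact Mll3. There was 1 library for each of the 4 conditions, and the sources name no separate lines or animals, so no difference below has a replicate check, no test was possible and no p-value is given. The 95% intervals below are exact (Clopper-Pearson) intervals of the read ratio and cover counting error only; they compare the libraries, not the conditions. Values for all libraries are given in the order Ad-GFP day 0, Ad-GFP day 2, Ad-Cre day 0 and Ad-Cre day 2 unless said otherwise, and ratios are written as day 2/day 0 and Ad-Cre/Ad-GFP on the log2 scale.

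Complement is a cascade of blood and tissue proteins that marks surfaces for clearance and lysis. The classical and lectin routes start from recognition molecules with attached serine proteases (C1r and C1s, or the MASPs) that cleave C4 and C2, the alternative route is driven by factor B, factor D and properdin, and all of them meet at C3, from which the terminal pore is assembled. Soluble inhibitors such as the C1 inhibitor (Serping1) and membrane inhibitors such as CD55 and CD59 hold the cascade in check on host cells. The liver makes most of the circulating proteins, and fat cells are known to produce C3, factor B and factor D (adipsin).

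Mapped reads ran from 17198448 to 22986362 per library, so that 3 reads on 1 kb of exon amount to 0.131 to 0.174 RPKM. Exon counts summed over transcripts came to 99%, 96.1%, 99.4% and 87.8% of mapped reads, lowest in Ad-Cre cells at day 2. RPKM is scaled by mapped reads, so all ratios of that library carry this difference. With the sum of counts as library size, the day 2 Ad-Cre/Ad-GFP log2 ratios of C3 and C4b were -3.05 and -3.12. Of the brown preadipocyte and adipocyte markers, 11 of 13 were expressed, with Ucp1 at no more than 1 read and Cidea at 0 in every library, so the cells carried preadipocyte and early adipocyte markers but not these thermogenic ones. Of 11 macrophage and leukocyte markers found, Cd14 alone was expressed (52, 16, 74 and 29 reads), Csf1r had 16, 2, 3 and 4 reads, and Ptprc, Adgre1 and Cd3e were at 0 in every library; the list summed to 2.59, 0.537, 3.03 and 1.34 RPKM. Of 8 endothelial markers, Egfl7 alone was expressed, at 5.59, 10.8, 6.74 and 29.6 RPKM, and Pecam1 and Cdh5 had at most 4 reads. No hepatocyte marker of 8 was expressed, and Alb had 1 read in each library. Reads over the whole Mll4 (Kmt2d) transcript numbered 6304, 8530, 6316 and 5595 in that order; such counts do not check the loss of a few floxed exons.

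The stretch before the transcription start is shown for C3 and C1ra, as C3 is the member that changed most and C1ra is a member over 2.5-fold lower in Ad-Cre cells at day 0. The sequences are the 250 bases upstream of the start in the RefSeq promoter table of GRCm38.p6, which matched 4 of the 7 members. Capitals mark matches on either strand to TTNNGNAA (a C/EBP motif) and, in C3, to the kappaB motif, with overlapping matches written as 1 run. The C3 stretch lies on the minus strand at chr17:57228137-57228386 and the C1ra stretch on the plus strand at chr6:124512371-124512620.
C3: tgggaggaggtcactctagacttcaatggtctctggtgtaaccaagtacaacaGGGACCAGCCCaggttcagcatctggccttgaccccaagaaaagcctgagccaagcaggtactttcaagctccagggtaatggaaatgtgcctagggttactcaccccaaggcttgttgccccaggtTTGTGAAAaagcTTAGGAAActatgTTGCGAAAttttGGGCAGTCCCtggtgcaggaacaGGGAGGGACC
C1ra: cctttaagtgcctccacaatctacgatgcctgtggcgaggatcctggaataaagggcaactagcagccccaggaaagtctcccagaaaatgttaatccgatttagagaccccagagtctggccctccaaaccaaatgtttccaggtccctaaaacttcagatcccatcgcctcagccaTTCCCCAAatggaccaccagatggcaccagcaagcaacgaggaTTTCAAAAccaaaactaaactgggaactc

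The C3 stretch held the C/EBP letters at 3 places, from -70 to -63, from -58 to -51 and from -45 to -38 relative to the start. The C1ra stretch held them at 2 places, from -72 to -65 and from -29 to -22, and had no kappaB match. Of the 32851 promoter stretches of the same length in the table, 36.8% held at least 1 C/EBP match, 2.61% held at least 3 such places and 45.8% held a kappaB match. The interferon-linked motifs GAS (TTCNNNGAA) and ISRE, found in 7.02% and 2.98% of the stretches, were in neither gene. A match describes the letters and is not evidence of binding.

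**Figure D1:**
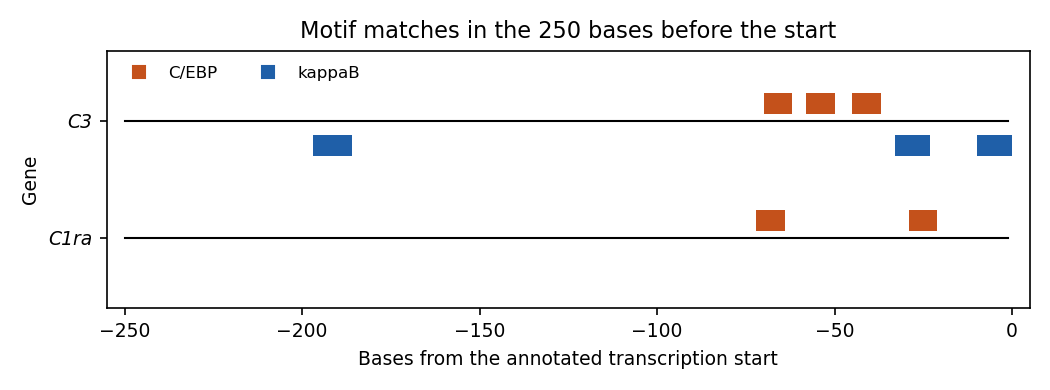
Matches to the C/EBP motif (orange, above the line) and the kappaB motif (blue, below the line) in the 250 bases before the annotated start of C3 and C1ra, by distance in bases from the start. The 3 C/EBP places of C3 lie within the last 70 bases, and C1ra holds 2 C/EBP places and no kappaB match.

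C3 encodes the protein at which all routes of the cascade meet. In Ad-GFP cells it rose from 14 reads (0.159 RPKM) at day 0 to 3883 reads (32.9 RPKM) at day 2. In Ad-Cre cells it rose from 17 reads (0.17 RPKM) to 336 reads (3.63 RPKM). Both day 2 libraries were thus above both day 0 libraries, and the Ad-GFP library at day 2 stood highest. The day 0 libraries did not differ beyond counting error, with an Ad-Cre/Ad-GFP log2 ratio of 0.10 (95% interval -1.01 to 1.23). The day 2/day 0 log2 ratio was 7.70 (6.95 to 8.57) in Ad-GFP cells, a 208-fold rise, and 4.42 (3.72 to 5.22) in Ad-Cre cells, a 21.4-fold rise. At day 2, Ad-Cre cells had 9.07-fold less C3 than Ad-GFP cells (log2 -3.18, -3.35 to -3.02).

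Among 10373 expressed symbols with at least 100 reads in 1 of the 2 Ad-GFP libraries, the rise of C3 was the 8th from the top. C3 met this read limit only through day 2, where it was high (3883 reads against 14). By level, C3 was in place 11727 of the 11861 expressed symbols in Ad-GFP cells at day 0 and in place 1721 at day 2. In Ad-Cre cells it went from place 11666 to place 8267. Of the summed RPKM of all complement genes other than C1qbp, which encodes a mainly mitochondrial protein that also binds C1q, C3 made up 0.362% and 43.1% in Ad-GFP cells at day 0 and day 2, and 0.63% and 11.7% in Ad-Cre cells. The transcript (NM_009778) lies on chromosome 17 (minus strand) from 57343397 to 57367559 in NCBI37/mm9, with 41 exons; the other positions of genes below are in the same build. None of its 50-base windows matched elsewhere in the genome with up to 2 mismatches. With 1 RPKM added to both sides the log2 rises were 4.87 and 1.98. The difference at day 2 was smaller, at a log2 ratio of -2.56, when each ratio was divided by its trend over transcript length. C4b is of similar exon length (5393 against 5133 bases), so this trend bears on its ratios too.

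C4b encodes the C4 protein that the C1 and MASP proteases cleave. It went from 19 reads (0.205 RPKM) at day 0 to 327 reads (2.64 RPKM) at day 2 in Ad-GFP cells. In Ad-Cre cells it went from 11 reads (0.105 RPKM) to 27 reads (0.278 RPKM). The Ad-GFP library at day 2 stood apart, and neighbours in the order of the other 3 libraries did not differ beyond counting error. From day 0 to day 2 the log2 ratio was 3.69 (3.02 to 4.44) in Ad-GFP cells, a 12.9-fold rise that took place 108 of the same 10373 symbols and was 1.59 on the log2 scale with 1 RPKM added. In Ad-Cre cells it was 1.41 (0.35 to 2.57), a 2.66-fold ratio that passed the 2.5-fold cutoff with an interval that reaches well below it; with 1 RPKM added to both sides this log2 ratio was 0.21. At day 2, C4b was 9.50-fold lower in the Ad-Cre library (log2 -3.25, -3.87 to -2.68), and with 1 RPKM added the log2 value was -1.51.

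By the Ad-Cre/Ad-GFP ratio of day 2, C4b and C3 were the 8th and the 12th from the bottom of 10198 expressed symbols with at least 100 reads in 1 of those libraries. C4b met this limit, and that for its place 108, only through the Ad-GFP library at day 2 (327 reads), where it was high. C3 met the limit of day 2 in both libraries (3883 and 336 reads). These places describe the order and are not separate support. C4b (NM_009780) lies on the minus strand of chromosome 17 from 34865325 to 34880827 with 41 exons, close to its near-copy C4a. Of its 50-base windows, 44.2% matched C4a with up to 2 mismatches and 22.2% matched exactly, and the treatment of such reads is not given in the sources used here, so the C4b level is uncertain. C4a itself had 7, 22, 9 and 17 reads.

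Cfb encodes factor B, the protease of the alternative pathway. It had 51 reads (1.08 RPKM) and 62 reads (0.983 RPKM) in Ad-GFP cells at day 0 and day 2, and 35 reads (0.654 RPKM) and 54 reads (1.09 RPKM) in Ad-Cre cells. The levels were close in all libraries, the lowest being Ad-Cre cells at day 0, and no neighbours in the order differed beyond counting error. Libraries further apart in the order did: Ad-Cre cells at day 0 were below Ad-Cre cells at day 2 and Ad-GFP cells at day 0. None of the 4 ratios passed 2.5-fold. On the log2 scale, day 2/day 0 was -0.14 (-0.69 to 0.43) in Ad-GFP and 0.74 (0.10 to 1.40) in Ad-Cre cells. At day 0 Ad-Cre/Ad-GFP stood at -0.73 (-1.39 to -0.08), and at day 2 it stood at 0.15 (-0.40 to 0.70). Cfb (NM_001142706) lies on the minus strand of chromosome 17 from 34993319 to 34999463 with 18 exons, and the gene model Gm20547 covers 2246 exonic bases on the same strand, so that their reads cannot be told apart. A second Cfb transcript has the same reads.

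C1ra encodes the protease C1r of the classical pathway. It went from 140 reads (2.95 RPKM) at day 0 to 100 reads (1.58 RPKM) at day 2 in Ad-GFP cells. In Ad-Cre cells it went from 31 reads (0.575 RPKM) to 48 reads (0.964 RPKM). Both Ad-GFP libraries were above both Ad-Cre libraries, and each neighbour in the order Ad-GFP day 0, Ad-GFP day 2, Ad-Cre day 2, Ad-Cre day 0 differed beyond counting error. At day 0, C1ra was 5.12-fold lower in the Ad-Cre library (log2 -2.36, -2.97 to -1.79), the 97th from the bottom of 9904 expressed symbols with at least 100 reads in 1 of those libraries. C1ra met that read limit only in the Ad-GFP library (140 reads against 31). With 1 RPKM added to both sides the log2 ratio at day 0 was -1.33. The other ratios did not pass 2.5-fold: on the log2 scale Ad-Cre/Ad-GFP at day 2 was -0.71 (-1.24 to -0.20), and day 2/day 0 was -0.90 (-1.29 to -0.52) in Ad-GFP and 0.74 (0.06 to 1.45) in Ad-Cre cells. C1ra (NM_023143) lies on chromosome 6 (plus strand) from 124462423 to 124473458 with 11 exons. Of its windows, 70.6% matched elsewhere with up to 2 mismatches and 42.0% matched exactly, most of them at the neighbouring place annotated to C1rb and C1s. C1rb had at most 1 read in any library, so the share of reads between these copies is uncertain.

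Serping1 encodes the C1 inhibitor, which blocks C1r, C1s and the MASPs. In Ad-GFP cells it went from 43 reads (1.37 RPKM) at day 0 to 10 reads (0.239 RPKM) at day 2. In Ad-Cre cells it had 6 reads at both days (0.169 and 0.183 RPKM). The Ad-GFP library at day 0 stood apart from the other 3, which did not differ beyond counting error between neighbours. Serping1 was 5.75-fold lower at day 2 in Ad-GFP cells, a log2 ratio of -2.52 (-3.68 to -1.51). At day 0 it was 8.13-fold lower in the Ad-Cre library (log2 -3.02, -4.55 to -1.78). These calls rest on few reads, and with 1 RPKM added the log2 ratios were -0.94 and -1.02, short of the cutoff. Neither day 2/day 0 in Ad-Cre cells (log2 0.11, -1.79 to 2.02) nor Ad-Cre/Ad-GFP at day 2 (log2 -0.39, -2.13 to 1.22) passed the cutoff. Serping1 (NM_009776) lies on the minus strand of chromosome 2 from 84605544 to 84615601 with 8 exons and had no window that matched elsewhere.

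The membrane inhibitors CD55 and CD59, which stop the C3 convertases and the terminal pore on host cells, were low. Cd59a had 30 reads (0.965 RPKM) and 20 reads (0.481 RPKM) in Ad-GFP cells at day 0 and day 2, and 27 reads (0.765 RPKM) and 12 reads (0.368 RPKM) in Ad-Cre cells. Both day 2 libraries were below both day 0 libraries, but no neighbours in the order differed beyond counting error. Its day 2/day 0 log2 ratio was -1.0 (-1.90 to -0.14) in Ad-GFP and -1.06 (-2.17 to -0.03) in Ad-Cre cells, while Ad-Cre/Ad-GFP stood at -0.33 (-1.14 to 0.47) before induction and -0.39 (-1.55 to 0.72) after it. A second Cd59a transcript with the same reads and a shorter exon length reached 1.03 RPKM. Cd59a (NM_001111060) lies on chromosome 2 (plus strand) from 103935958 to 103955511 with 5 exons, and 43.8% of its windows matched elsewhere, nearly all of them in Cd59b. Cd55 (NM_010016, minus strand of chromosome 1 from 132335604 to 132359321, 10 exons) and Cd55b had no read in any library, which on the annotated length of 2533 bases allows Cd55 up to between 0.0515 and 0.0689 RPKM. Of the Cd55 windows, 30.6% matched elsewhere, nearly all of them in Cd55b (Daf2), so this limit holds only if such reads were counted.

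**Figure D2:**
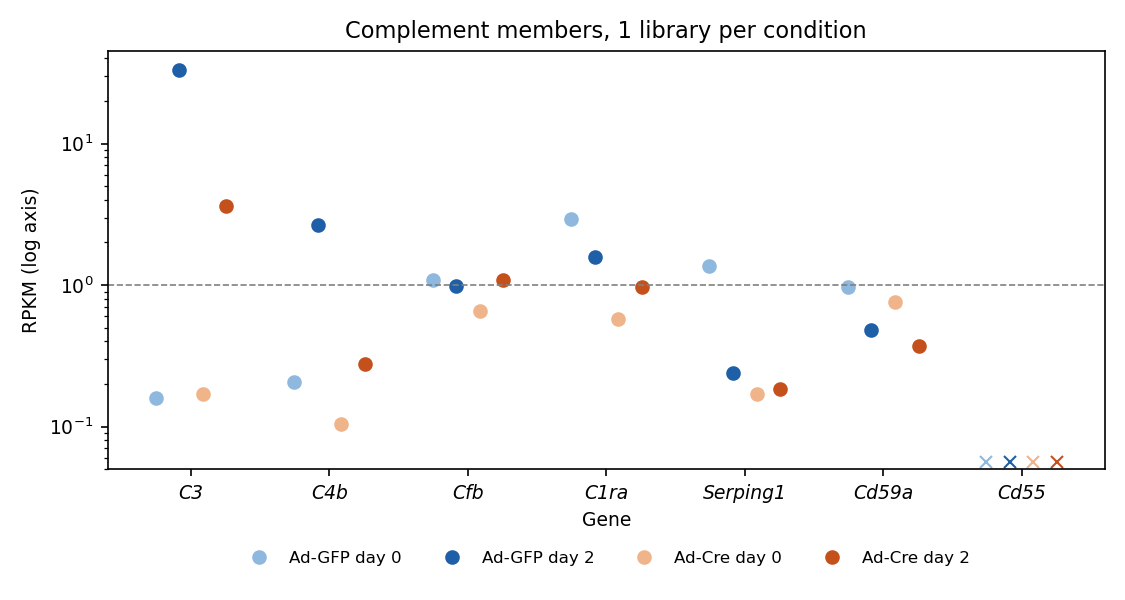
RPKM on a log axis of each member in the 4 libraries, 1 point per library, with the dashed line at 1 RPKM and crosses for no reads. At day 2, C3 stood at 32.9 RPKM in Ad-GFP and 3.63 RPKM in Ad-Cre cells, and Cd55 was at 0 in every library.

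Counted together, 2 of the 5 expressed members (C3 and C4b) were over 2.5-fold higher at day 2 in Ad-GFP cells and 1 (Serping1) was over 2.5-fold lower, where 8.43% of all 11861 expressed symbols were past the cutoff upward and 13.0% downward. C4b passed 1 RPKM only in Ad-GFP cells at day 2 (2.64) and Serping1 only in Ad-GFP cells at day 0 (1.37). Both entered the 5 through the library where they were high, so their calls are tied to that entry. C3 passed 1 RPKM only at day 2 (32.9 and 3.63) and C1ra only in Ad-GFP cells (2.95 and 1.58). The day 2/day 0 calls of C3 and the Ad-Cre/Ad-GFP call of C1ra at day 0 are thus tied to entry too. Cd59a and Cd55 are outside the 5. In Ad-Cre cells C3 and C4b were also over 2.5-fold higher at day 2 and no member was lower, beside 9.61% and 10.4% of all expressed symbols. In Ad-Cre/Ad-GFP at day 0, no member was higher and 2 (C1ra and Serping1) were lower, beside 2.08% and 4.17%. At day 2 no member was higher and 2 (C3 and C4b) were lower, beside 9.59% and 9.87%. The median log2 ratio of the 5 members was -0.14, 0.74, -0.97 and -0.71 in these contrasts in turn. The median of all expressed symbols was itself shifted to 0.137 for day 2/day 0 in Ad-GFP cells and to -0.141 for Ad-Cre/Ad-GFP at day 2. Relative to these medians, the log2 rise of C3 in Ad-GFP cells was 7.56 and its day 2 ratio -3.04, and those of C4b were 3.55 and -3.11.

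**Figure D3:**
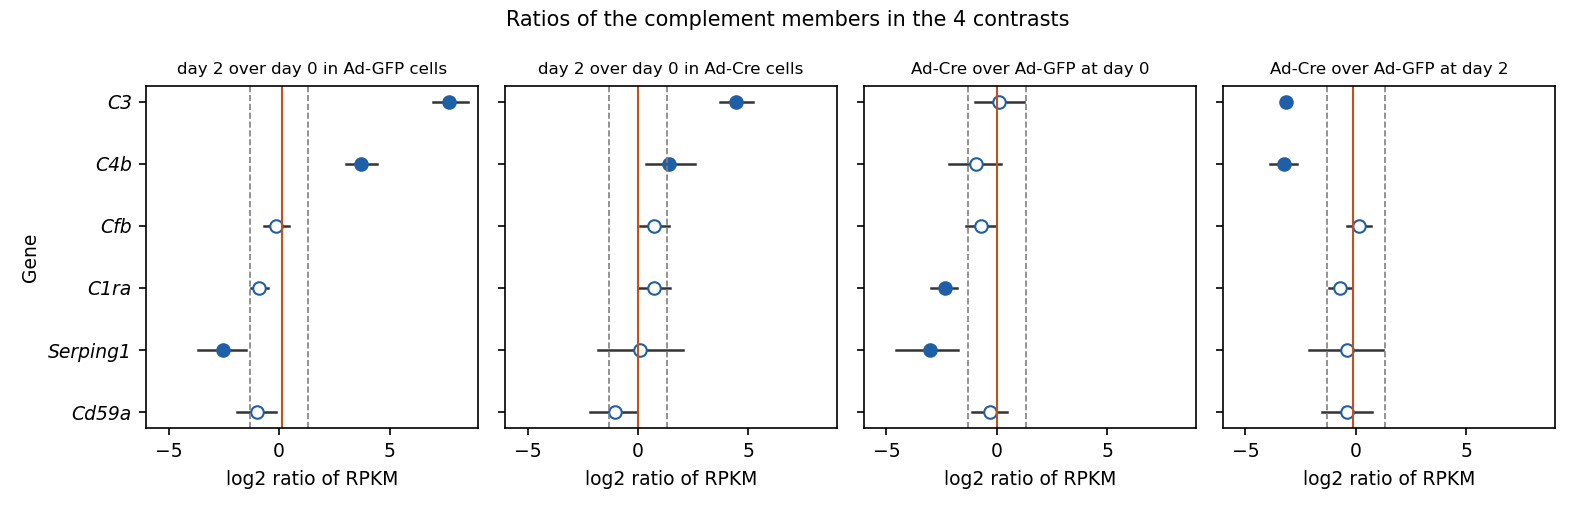
Log2 ratios of RPKM of the 6 members with reads in the 4 contrasts, with 95% intervals of counting error as bars; filled points were expressed and past 2.5-fold (dashed lines), and the orange line is the median of all expressed symbols. C3 and C4b lay right of the cutoff in both day 2 to day 0 contrasts and left of it in Ad-Cre against Ad-GFP cells at day 2, and C1ra and Serping1 lay left of it at day 0.

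The change from day 0 to day 2 was compared between Ad-Cre and Ad-GFP cells as the log2 ratio in Ad-Cre cells minus that in Ad-GFP cells, with 95% intervals from the normal approximation to log counts. This difference was -3.28 (-4.31 to -2.25) for C3 and -2.28 (-3.49 to -1.07) for C4b, which rose less in Ad-Cre cells. It was 1.65 (0.90 to 2.40) for C1ra and 2.64 (0.73 to 4.55) for Serping1, whose day 0 levels were already lower in Ad-Cre cells. Cfb stood at 0.88 (0.06 to 1.69) and Cd59a at -0.05 (-1.33 to 1.22). The intervals of 5 members thus lay off 0 by counting error, which is not the spread between cultures.

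**Figure D4:**
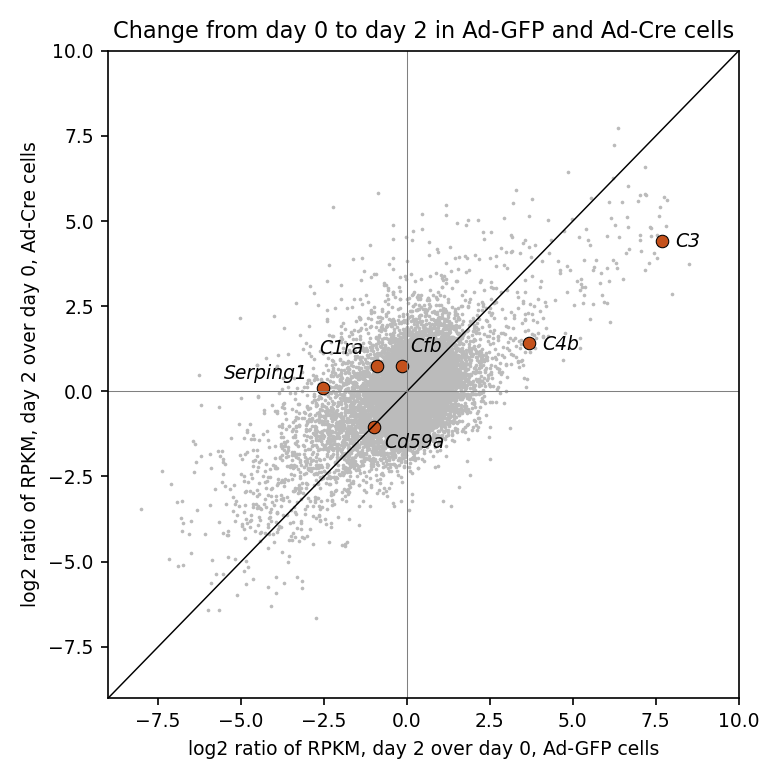
Log2 ratio of RPKM of day 2 to day 0 in Ad-GFP cells (horizontal) and Ad-Cre cells (vertical) for 11713 expressed symbols with reads in all libraries (grey) and 6 members (orange); the diagonal marks equal change. C3 (7.70 and 4.42) and C4b (3.69 and 1.41) lay below the diagonal, and Serping1 (-2.52 and 0.11) and C1ra (-0.90 and 0.74) above it.

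Cell markers also differed between the libraries. The summed RPKM of the brown preadipocyte and adipocyte markers was 135, 2030, 31.5 and 512 in the 4 libraries. This sum mixes markers that moved in opposite directions. Of the expressed markers, Prdm16 passed 1 RPKM only in Ad-GFP cells at day 2. Adipoq and Plin1 passed it only at day 2 and Ly6a only in Ad-GFP cells. Calls of these markers that set such libraries against the others are tied to that entry. In Ad-GFP cells 7 of the 11 were over 2.5-fold higher at day 2, beside 8.43% of all expressed symbols. Pdgfra (73.6 to 7.63 RPKM) and Cd34 (11.1 to 1.46 RPKM) were lower, beside 13.0%. In Ad-Cre cells Cd34 rose from 0.352 to 2.98 RPKM. At day 2, 8 of the 11 expressed markers were over 2.5-fold lower in Ad-Cre cells and none was higher, beside 9.87% and 9.59% of all expressed symbols. Among these 8 were Fabp4 (893 against 223 RPKM), Adipoq (27.5 against 5.67 RPKM) and Cebpa (661 against 169 RPKM), lower as C3 and C4b were. At day 0, 4 of the 11 were over 2.5-fold lower in Ad-Cre cells and none was higher, beside 4.17% and 2.08% of all expressed symbols. Among these 4 were Pdgfra (73.6 against 9.72 RPKM), Cd34 (11.1 against 0.352 RPKM) and Ly6a (9.90 against 0.248 RPKM), lower as C1ra and Serping1 were. The part of these shifts in the results for the complement genes was not tested. In bulk RNA, fewer cells of a type and less RNA per cell cannot be told apart. Muscle markers (8 listed, 3 expressed) summed to 19.2, 0.641, 48.5 and 5.81 RPKM, of which Acta1 made up 18.4, 0.364, 48.5 and 3.41 RPKM, with Myog and Myh3 at 0. All 3 expressed ones (Acta1, Des and Tnnt3) were over 2.5-fold higher in Ad-Cre cells at day 2, beside 9.59% of all expressed symbols. Des and Tnnt3 rest on few reads (49 against 5 and 21 against 3). They passed 1 RPKM only in Ad-Cre cells at day 2 (1.26 and 1.08), where they were high, so these calls are tied to that entry. At day 0 Acta1 was higher in Ad-Cre cells, while Des and Tnnt3 had 0 reads there against 19 and 6 in Ad-GFP cells. Egfl7 of the endothelial list was also over 2.5-fold higher in Ad-Cre cells at day 2 (log2 1.46). The part of the muscle and endothelial markers in the results was not tested either.

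The rest of the complement system was followed through 58 listed genes, the 7 members included, of which 57 were in the files and 13 were expressed. No read was found for 19 of them, among them C1qa and C1qb, the mannose-binding lectins Mbl1 and Mbl2, and all of Hc (C5), C6, C7, C8a, C8b and C9. Cfd, named outside the read limit because it encodes factor D (adipsin), had 0, 8, 0 and 1 reads. It reached at most 0.377 RPKM, in Ad-GFP cells at day 2, and was not expressed. Of the 13 expressed genes, 4 were over 2.5-fold higher and 2 lower at day 2 in Ad-GFP cells, beside 8.43% and 13.0% of all expressed symbols. In Ad-Cre cells 5 were higher and 1 lower, beside 9.61% and 10.4%. In Ad-Cre against Ad-GFP cells none was higher and 5 were lower at day 0, beside 2.08% and 4.17%, and none was higher and 4 were lower at day 2, beside 9.59% and 9.87%. A count of 1 or 2 of 13 is near these shares. Their median log2 ratios were 0.08, 0.74, -0.76 and -0.42. Beside the members and the genes described next, these counts hold C8g and Clu, named here because they are in them. C8g, a subunit of C8, had 12, 41, 5 and 38 reads, and its day 2/day 0 log2 ratio in Ad-GFP cells was 1.35 by RPKM, past the cutoff, and 1.26 with TMM factors, short of it. Clu, which encodes the inhibitor clusterin, had 54, 33, 11 and 27 reads, and both genes rest on few reads. C8g passed 1 RPKM only at day 2 and Clu only in Ad-GFP cells at day 0, so their calls are tied to how they entered the 13. Masp1 passed it only at day 0 (9.59 and 5.68 RPKM), so its lower calls at day 2 are tied to entry too. The limits given above for C3, C4b, C1ra and Serping1 hold here as well.

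Among the proteases of the classical and lectin routes, C1s1, the partner of C1r, resembled C1ra at day 0. It had 476 reads (9.39 RPKM) and 672 reads (9.92 RPKM) in Ad-GFP cells at day 0 and day 2, and 24 reads (0.417 RPKM) and 114 reads (2.15 RPKM) in Ad-Cre cells. Both Ad-Cre libraries were below both Ad-GFP libraries. At day 0 its Ad-Cre/Ad-GFP log2 ratio stood at -4.49 (-5.15 to -3.90), a 22.5-fold difference, and at day 2 it stood at -2.21 (-2.51 to -1.92). From day 0 to day 2 its log2 ratio was 0.08 (-0.09 to 0.25) in Ad-GFP and 2.36 (1.72 to 3.06) in Ad-Cre cells.

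Masp1 and Masp2 encode the proteases of the lectin route. Masp1 fell from 454 reads (9.59 RPKM) to 20 reads (0.316 RPKM) in Ad-GFP cells and from 305 reads (5.68 RPKM) to 24 reads (0.484 RPKM) in Ad-Cre cells, so that both day 2 libraries were low. Its day 2/day 0 log2 ratio was -4.92 (-5.65 to -4.28) in Ad-GFP and -3.55 (-4.22 to -2.95) in Ad-Cre cells. Masp2 had 337 reads (6.41 RPKM) and 875 reads (12.4 RPKM) in Ad-GFP cells and 418 reads (7.0 RPKM) and 264 reads (4.79 RPKM) in Ad-Cre cells. Its day 2 level was 2.6-fold lower in the Ad-Cre library (log2 -1.38, -1.58 to -1.18), just past the cutoff, and with TMM factors the log2 ratio was -1.24, short of it.

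Cfp encodes properdin, which stabilizes the alternative C3 convertase. It had 88 reads (3.36 RPKM) and 136 reads (3.88 RPKM) in Ad-GFP cells and 148 reads (4.98 RPKM) and 258 reads (9.39 RPKM) in Ad-Cre cells, the highest level being that of Ad-Cre cells at day 2. At day 2 its Ad-Cre/Ad-GFP log2 ratio was 1.27 (0.97 to 1.58) by RPKM, short of the cutoff, and 1.41 with TMM factors, past it. Cr1l, which encodes the membrane inhibitor Crry, stayed between 3.4 and 5.06 RPKM in all libraries and passed the cutoff in no contrast. C1qbp was the most abundant of the genes in the complement lists, at 35.6 and 120 RPKM in Ad-GFP cells and 46.8 and 67.2 RPKM in Ad-Cre cells, and was over 2.5-fold higher at day 2 in Ad-GFP cells (log2 ratio 1.75, 1.63 to 1.87) and not in Ad-Cre cells (0.52, 0.41 to 0.64).

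**Figure D5:**
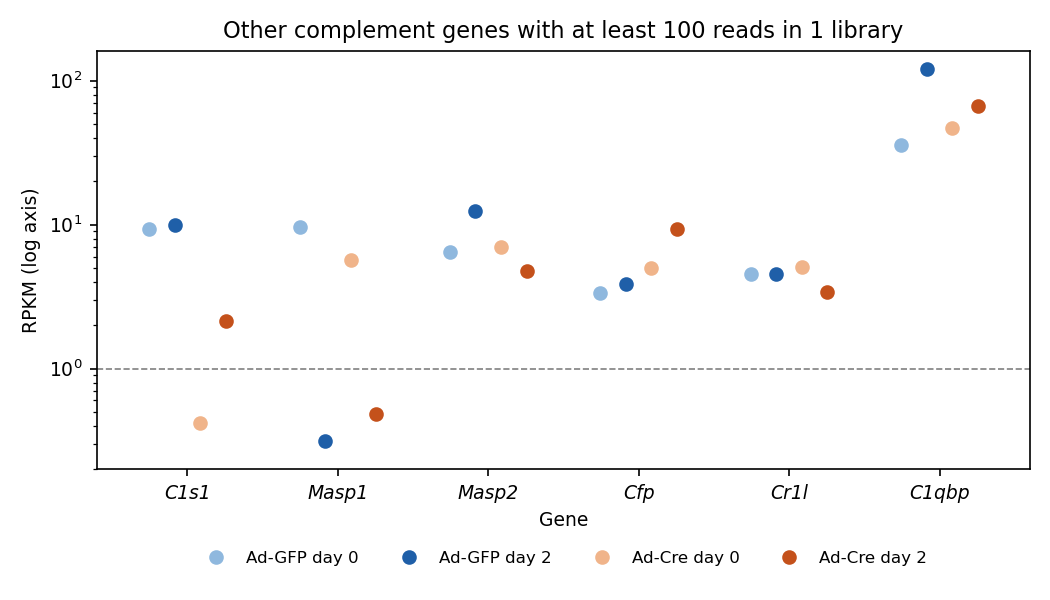
RPKM on a log axis of the 6 other complement genes with at least 100 reads in 1 library, 1 point per library, with the dashed line at 1 RPKM. C1s1 was lowest in Ad-Cre cells at day 0 (0.417 RPKM), Masp1 was low in both day 2 libraries (0.316 and 0.484 RPKM), and C1qbp stood highest.

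The genes whose profile over the 4 libraries was closest to that of a member were found by the root mean square difference of centred log2(RPKM + 0.5) values among 10701 symbols with at least 100 reads in 1 library. For C3 they were Adamts15 (0.144), Gpat3 (0.159) and Angptl4 (0.257), in log2 units. Adamts15 had 0.284, 37.4, 0.19 and 3.29 RPKM, a course much like that of C3. For C4b they were Ghitm (0.0815), Sort1 (0.0888) and Mtm1 (0.0929), and for C1ra Rgma (0.0291), Zfp395 (0.116) and Tspan9 (0.12). The added 0.5 RPKM exceeds C4b in all libraries but Ad-GFP day 2 (0.205, 0.105 and 0.278 RPKM). It also exceeds C3 at day 0 and is close to C1ra in Ad-Cre cells at day 0 (0.575 RPKM). This narrows the ratios of these members, so the distances can understate differences in plain RPKM. Ghitm had 36.9 and 176 RPKM at day 0 and day 2 with Ad-GFP, against 0.205 and 2.64 RPKM for C4b. With Ad-Cre it had 36.9 and 45.2 RPKM, against 0.105 and 0.278 RPKM. Each profile has 4 values, and the list is a description.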

How the data were processed

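Libraries were RNA-Seq from 4 conditions, grouped by the sample labels, with 1 library each. The authors aligned 50-base reads to NCBI37/mm9 after the Illumina Analysis Pipeline and deposited, for 29082 RefSeq transcripts, the read count on exons, which is not normalized. The authors also deposited RPKM, the count divided by exon length in kilobases and by mapped reads. The treatment of reads with several matches and of strand is not given in the sources used here; the submitters' processing notes name bedtools 2.16 and SICER 1.1 without a role. The mapped reads (17198448 to 22986362) and exon lengths were recovered from counts and RPKM.

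Symbols came from a RefSeq table of GRCm38.p6, used for names, and matched 97.8% of transcripts. Each symbol was represented by the transcript with most reads, and of tied ones by the first accession. Ratios of RPKM past 2.5-fold were counted among 11861 symbols with RPKM above 1 in at least 1 library, with exact 95% intervals of the read ratio. No test was run, since no condition had a replicate. Coordinates came from GENCODE vM1 on NCBI37/mm9, promoters from the RefSeq table of GRCm38.p6, and windows of 50 bases were matched with blastn 2.17.0. Scaling factors came from edgeR 4.0.16 and DESeq2 1.42.0 in R 4.3.3, with no test. All else ran in Python 3.11.15 with scipy 1.17.1, pandas 2.3.3, numpy 2.4.6 and matplotlib 3.10.9; the scripts were tested on simulated data. Named genes were the 7 members, other complement genes with at least 100 reads in 1 library, and the 3 nearest profiles of each member with at least 100 reads; a gene outside this rule is said to be so. Alternatives numbered 12, and 2 more (a trend over length and GC content, and the shorter of tied transcripts) were chosen after seeing the data. The members, gene lists and settings were chosen with earlier results of these data known.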

Additional observations from a re-analysis of the deposited data

Results flagged for a closer look

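C1ra changed in opposite directions from day 0 to day 2 in the 2 kinds of cells, with a log2 ratio of -0.90 (100 against 140 reads) in Ad-GFP cells and 0.74 (48 against 31 reads) in Ad-Cre cells. Neither ratio passed 2.5-fold, the interval of each lies off 0 by counting error alone, and with 1 library per condition the difference was not tested against the spread between cultures. It ends at levels of 1.58 and 0.964 RPKM, which lie closer together than the day 0 levels of 2.95 and 0.575 RPKM.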

How the results depend on the processing

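No paired analysis was possible because each condition had 1 library, and for the same reason no replicate could be left out. The log2 ratios of the members were recalculated 192 times over 8 settings: 180 stayed within the counting interval, 12 lay outside it and 0 reversed among called ratios; 9 of the 12 arose with 1 RPKM added, which pulls low genes towards 0 by construction.

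Counts of genes past the cutoff moved more. With 1 RPKM added, members lower at day 2 in Ad-GFP cells went from 1 to 0, members higher at day 2 in Ad-Cre cells from 2 to 1 and members lower in Ad-Cre cells at day 0 from 2 to 1, and among the complement genes these counts went from 2 to 1, from 5 to 1 and from 5 to 2. At 4-fold, members higher in Ad-Cre cells went from 2 to 1, and complement genes higher at day 2 from 4 to 2 with Ad-GFP and from 5 to 3 with Ad-Cre. With the interval bound past the cutoff, members and complement genes higher at day 2 in Ad-Cre cells numbered 1 and 3. At 2-fold, with the sum of counts as library size, with TMM and with DESeq2 factors, 1 complement gene in place of 0 was higher in Ad-Cre cells at day 2. Those lower at day 2 went from 4 to 3 with the sum of counts, TMM, DESeq2 and the length trend, and those higher at day 2 with Ad-GFP went from 4 to 3 with TMM, DESeq2 and the length trend. Divided by trends of length and of GC content, which 84.6% of expressed symbols allowed, complement genes higher at day 2 in Ad-Cre cells numbered 3, those lower in Ad-Cre cells at day 0 numbered 3 and those lower at day 2 numbered 2; the cause was not tested. With no RPKM threshold, which adds genes of few reads by construction, complement genes higher and lower numbered 13 and 8 for day 2/day 0 with Ad-GFP, 15 and 9 with Ad-Cre, 4 and 11 for Ad-Cre against Ad-GFP at day 0, and 5 and 14 at day 2. Depth limits Serping1, Cd59a, and C3 and C4b at day 0, each at no more than 43 reads in the libraries concerned.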

Other observations

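Interferon-inducible and acute-phase genes are given beside the complement genes as values. Of 20 interferon-inducible genes, 18 were expressed, and at day 2 in Ad-GFP cells 15 of them were over 2.5-fold lower and none higher, with a median log2 ratio of -3.09, beside 13.0% and 8.43% of all expressed symbols. In Ad-Cre cells 10 were lower and none higher, with a median of -1.66, beside 10.4% and 9.61%. Ifit3, Oasl2, Mx2, Cxcl10, Gbp2 and Gbp3 passed 1 RPKM only at day 0, and Oas1a only in Ad-Cre cells at day 0 (1.9). Their day 2/day 0 calls are tied to that entry, for Oas1a in Ad-Cre cells. Isg15, a ubiquitin-like modifier, had 35.1 and 2.13 RPKM in Ad-GFP cells at day 0 and day 2 and 78.6 and 17.6 RPKM in Ad-Cre cells. At day 2, 8 of the 18 were over 2.5-fold higher in Ad-Cre cells and none lower, beside 9.59% and 9.87%, while C3 and C4b were lower. Among these 8, Oas1a (11 against 2 reads), Gbp2 (15 against 1) and Mx2 (17 against 5) rest on few reads. The summed RPKM of the 20 interferon-inducible genes was 292, 89.3, 407 and 190 (Ad-GFP day 0, Ad-GFP day 2, Ad-Cre day 0, Ad-Cre day 2).

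Of 20 acute-phase genes, 7 were expressed. At day 2 in Ad-GFP cells 4 were over 2.5-fold higher (Saa3, Lcn2, Hp and Serpina3n) and Il1r1 was lower, beside 8.43% and 13.0% of all expressed symbols, and in Ad-Cre cells 3 were higher and none lower, beside 9.61% and 10.4%. In Ad-Cre against Ad-GFP cells at day 2, 4 of the 7 were over 2.5-fold lower (Saa3, Hp, Il6ra and Serpina3n), as C3 and C4b were, and none was higher, beside 9.87% and 9.59%, with a median log2 ratio of -1.62. Saa3 had 1, 16, 1 and 1 reads and passed 1 RPKM only in Ad-GFP cells at day 2 (1.31), so its calls rest on few reads. Lcn2 and Serpina3n passed it only at day 2 in both kinds of cells. The higher calls of Saa3, Lcn2 and Serpina3n at day 2 are thus tied to how they entered the 7. Hp, which encodes the haemoglobin-binding protein haptoglobin, had 1.25 and 158 RPKM in Ad-GFP cells and 1.07 and 51.6 RPKM in Ad-Cre cells. Lcn2, which encodes the iron carrier lipocalin 2, had 0.341 and 28.1 RPKM in Ad-GFP cells and 0.24 and 51.4 RPKM in Ad-Cre cells, and its day 2 log2 ratio of 0.87 did not pass the cutoff.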
